A study of Mus musculus with 6 samples.

Results

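The NRF2 and antioxidant genes are 43 genes for the oxidant-responsive transcription factor NRF2, its sensor, and the enzymes and carriers that remove oxidants. They were chosen by gene name among the 55401 genes listed, and all 43 were found once and passed the filter on low counts. They were divided by role into 2 genes of the NRF2 switch, 3 NRF2 targets of mixed function, 14 genes of the glutathione system, 12 of the thioredoxin system, 5 that supply NADPH, 3 of haem and iron handling and 4 for superoxide and hydrogen peroxide. The cells were NIH3T3, a single immortalised line of wild-type mouse embryonic fibroblasts, given DMSO vehicle (3 libraries) or IPRN (3 libraries). The question given with the series is how IPRN acts on fibroblasts of the kind found in tumours, induced with hydrogen peroxide, an oxidant, and TGF-β. The title names angelicin, a plant furanocoumarin. The labels give no dose or time, do not tie the name IPRN to angelicin, and do not say whether the DMSO cells also received both inducers.

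In unstressed cells KEAP1 holds NRF2, encoded by Nfe2l2, in the cytoplasm and passes it to a ubiquitin ligase for destruction. Oxidants and electrophiles modify cysteines of KEAP1, NRF2 then accumulates, pairs with a small MAF protein and binds antioxidant response elements near genes for glutathione synthesis, thioredoxin recycling, NADPH production and iron storage. NRF2 is set mainly by protein stability, so its activity is usually read from its target genes rather than from its own mRNA. In fibroblasts this system buffers the peroxide that growth factor signalling and TGF-β generate.

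Total counts ran from 60320282 to 78629444 per library. The cells carried 12 of 12 fibroblast markers. These summed to 23630 to 24560 CPM (counts scaled to a fixed library total) in DMSO and 25680 to 28870 CPM in IPRN. Single markers went both ways. Pdgfra, S100a4, Vim and Col3a1 were lower in every IPRN library than in any DMSO library. Pdgfra stood at 109.0 to 116.6 CPM in IPRN against 185.8 to 191.0 CPM in DMSO. Fn1, Col5a1, Fbn1, Lox and Thy1 were higher in every IPRN library, and Col1a1, Col1a2 and Pdgfrb overlapped. Each of 26 liver markers had counts in both groups, and their sum ran from 44.3 to 115.5 CPM in DMSO and from 21.1 to 154.8 CPM in IPRN. Alb, the defining liver transcript, was at 0 in DMSO 1, at 0.189 CPM in IPRN 3 and at 42.1 CPM in IPRN 1. A single listed gene, Hp, made up 39.2 CPM of the sum in DMSO 1 and 15.2 CPM of that in IPRN 3. Hp stood at 39.2 to 41.1 CPM in all DMSO libraries and at 15.1 to 16.1 CPM in all IPRN libraries, unlike Alb. The 6 macrophage markers summed to 3.23 to 13.99 CPM in DMSO and to 14.6, 15.3 and 122.8 CPM in IPRN 1, 2 and 3, of which Lyz2 made up 99.3 CPM in IPRN 3. Sums of 6 epithelial, 5 endothelial and 6 erythroid markers stayed at or below 3.38 CPM. The part of any of these in the results was not tested, apart from the fits without single libraries given below. The labels do not say that replicates were separate cultures, so the p-values speak only of how these 6 libraries vary, and that variation may be technical. In bulk RNA, fewer cells that express a gene and less of its RNA per cell cannot be told apart.

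Most of the antioxidant genes did not pass the test. Under IPRN 3 of the 43 fell (Sod2, Glrx and Gsta4), 1 rose (Pgd) and 39 were not called by edgeR's quasi-likelihood test at a Benjamini-Hochberg adjusted p under 0.05. The called share was 9.30% of the members. The same rule called 5.47% of all 17159 genes tested, 3.01% as lower and 2.46% as higher. Of these genes, 9353 averaged at least 10 CPM, a level chosen after the values were seen and met by 41 of the 43, and 9.05% of them were called. At that level 4 of the 41 members were called, which is near the background there. Over all 43 the share of 9.30% lay above the 5.47% of all genes tested. The 4 changes were small, between 1.182-fold and 1.46-fold.

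The unadjusted 95% intervals speak only of how these 6 libraries vary. Of the 39 uncalled genes, 35 had an interval within 1.5-fold in both directions and 38 within 2-fold. For 36 of the 43 genes the 95% interval of the fold change lay within 1.5-fold in both directions, against 49.9% of all genes tested. For 42 it lay within 2-fold, against 66.2% of all genes tested. These shares of all genes include many at lower levels. They were not taken among genes at 10 CPM or more, a level that 41 of the 43 met. The 7 genes whose interval went past 1.5-fold were Keap1, Osgin1, Glrx, Gsta4, Txn2, Txnrd2 and Sod2, and only Osgin1 also went past 2-fold. The median log2 fold change of the 43 was -0.04, against 0.0016 for all genes tested. All 3 IPRN libraries lay below all 3 DMSO libraries for 14 of the 43 (32.6%, against 14.7% of all genes tested and 19.2% of those at 10 CPM or more). They lay above for 4 (9.30%, against 14.9% and 20.9%), and the groups overlapped for 25. In either direction the groups were apart for 41.9% of the members, against 29.6% of all genes tested and 40.1% of those at 10 CPM or more.

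**Figure D1:**
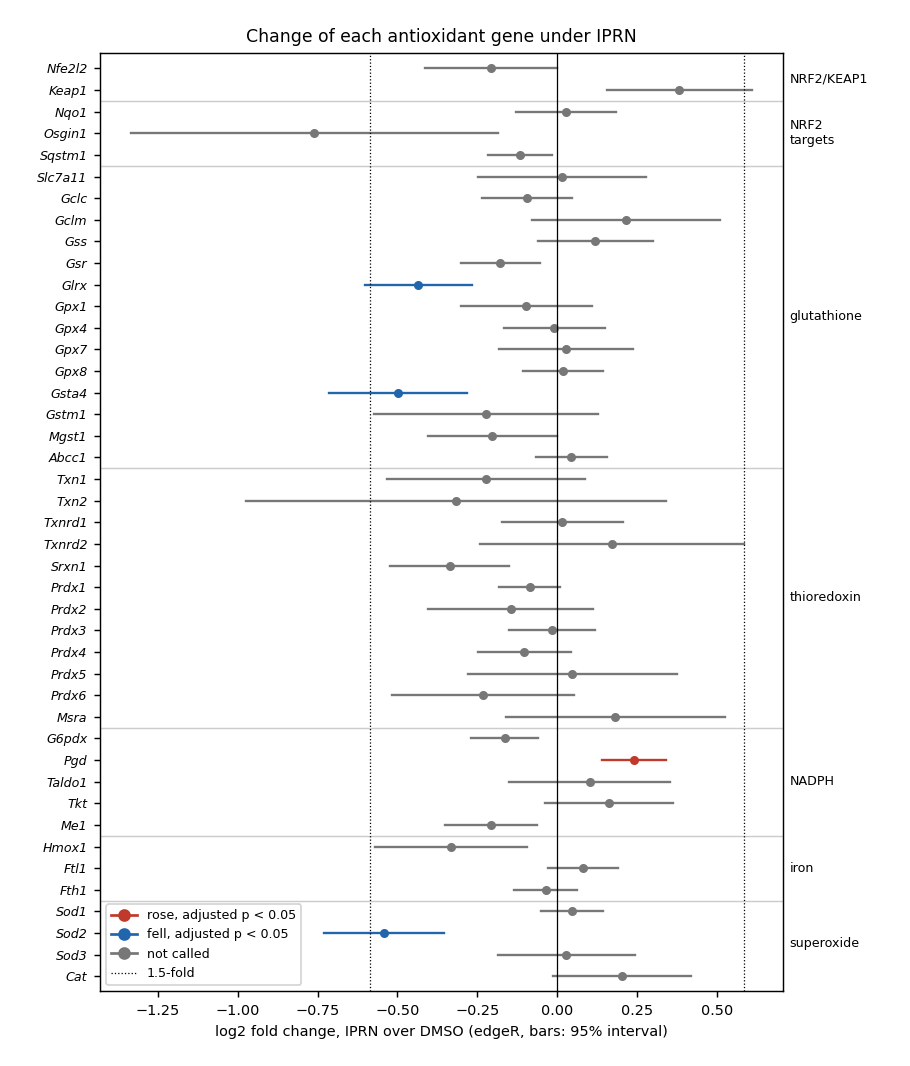
The log2 fold change of each of the 43 genes (IPRN over DMSO, x axis) is plotted by role, with its 95% interval from edgeR and dotted lines at 1.5-fold. Sod2, Glrx and Gsta4 lie to the left in blue, Pgd to the right in red, and the 39 grey genes were not called.

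Levels differed far more between the genes than between the groups. Scaled by length, on the deposited FPKM scale averaged over the 6 libraries, Ftl1 (ferritin light chain) stood highest at 1504. Next came Txn1 (thioredoxin) at 520.1, Fth1 (ferritin heavy chain) at 214.8 and Prdx1 (peroxiredoxin 1) at 211.9. Sqstm1 followed at 131.1 and Gpx4 at 117.1 FPKM. The lowest were Osgin1 at 1.53, Msra at 1.72, Slc7a11 at 1.84, Txnrd2 at 3.58 and Sod3 at 4.99 FPKM. FPKM divides by length, and Slc7a11 has 13922 annotated exonic bases. By TMM-normalised CPM in DMSO, Slc7a11 at 28.4 stood above Sod3 at 20.6 and Txnrd2 at 16.5. Fth1 and Prdx1 do not differ beyond the spread of their libraries. By FPKM Ftl1 stood above 99.8% of the genes tested and Osgin1 above 38.4%.

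**Figure D2:**
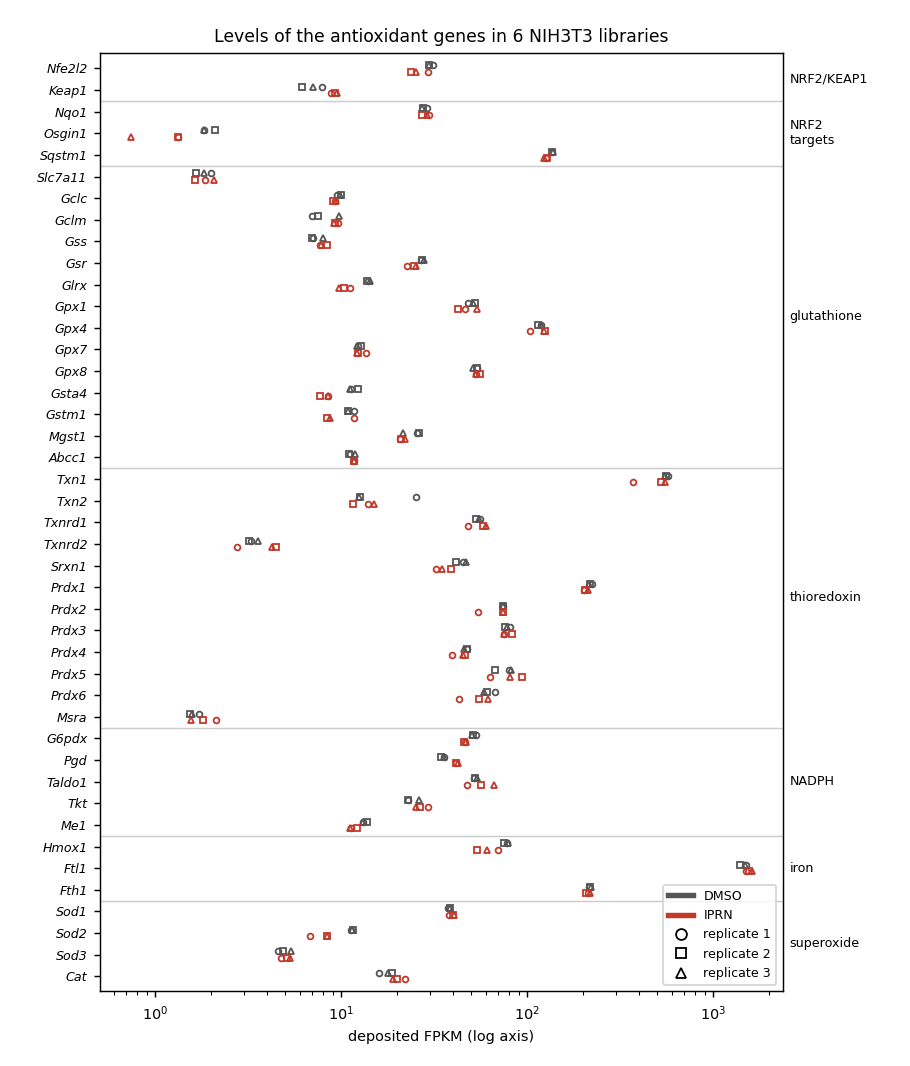
Deposited FPKM of each gene (log x axis) in the 3 DMSO libraries (grey) and the 3 IPRN libraries (red), with a symbol for each replicate. Ftl1, Txn1, Fth1 and Prdx1 lie far to the right of Osgin1, Msra and Slc7a11 in both groups.

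The NRF2 switch was measured by its factor and its sensor. Nfe2l2 (chromosome 2 from 75675513 to 75704641, minus strand) stood at 131, 125 and 126.1 TMM-normalised CPM in DMSO 1, 2 and 3, and at 125.4, 99.9 and 105.7 CPM in IPRN 1, 2 and 3. IPRN 2 and 3 lay below every DMSO library and IPRN 1 lay among them. The log2 fold change was -0.21 ± 0.087 (SE), with an edgeR adjusted p of 0.227, which did not pass. Without IPRN 1, it was -0.31 and was called (adjusted p = 0.0235).

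Keap1, the sensor (chromosome 9 from 21229730 to 21239361, minus strand), stood at 41.2, 32.1 and 36.8 CPM in DMSO and at 47.0, 47.8 and 48.7 CPM in IPRN. All IPRN libraries lay above all DMSO libraries, but the DMSO libraries were spread (36.7 ± 4.53 against 47.8 ± 0.871 CPM, SD, n = 3). The 1.303-fold difference did not pass in edgeR (adjusted p = 0.0700, 95% interval 1.11-fold to 1.53-fold), whereas DESeq2 called it (adjusted p = 0.00731). Keap1 shares exon sequence with an antisense gene, and reads of the pair cannot be told apart without strand. Of the pair of switch genes, 0 were called by edgeR and both had an unadjusted p under 0.05. Among all 17159 genes tested 3769 had such a p, which is the background for these counts here and below.

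The targets of mixed function were 3, of which edgeR called 0, 2 had an unadjusted p under 0.05 and DESeq2 called 1. Nqo1, a quinone reductase and the target most often used to read NRF2 activity (chromosome 8 from 107388225 to 107403206, minus strand), stood at 50.3, 47.4 and 46.8 CPM in DMSO and at 51.8, 46.6 and 49.0 CPM in IPRN. The groups overlapped throughout, and the interval of the difference ran from 0.916-fold to 1.14-fold (adjusted p = 0.862). Osgin1, an oxidant-induced growth inhibitor gene, stood at 5.48, 6.21 and 5.51 CPM in DMSO and at 4.03, 3.93 and 2.19 CPM in IPRN, where IPRN 3 was lowest. Its groups did not overlap. The log2 fold change of -0.76 ± 0.24 did not pass in edgeR (adjusted p = 0.124), while DESeq2 called it (0.0382). Sqstm1, the autophagy adaptor p62 that also sequesters KEAP1, stood at 505.5, 508.8 and 513.2 CPM in DMSO and at 478.4, 476.4 and 454.7 CPM in IPRN. The groups did not overlap, yet the fold change was only 0.923 (adjusted p = 0.169), and Sqstm1 shares exon sequence with Mrnip on the opposite strand.

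The response element can be looked for in the sequence before these genes. RefSeq promoter windows (GRCm38.p6, 250 bases before the start of transcription and 50 after) were at hand for 35 of the 43. They were searched on both strands for the element core TGACNNNGC, which overlaps the AP-1 motif TGACTCA. The core was in the windows of 10 of the 35 (28.6%), and in those of 16.7% of 11059 tested genes and 13.99% of all 27025 genes with a window. Each match is printed below 5′ to 3′ on the strand that carries the core, with the core in capitals and 10 bases on either side, to show which members hold the letters that NRF2 and small MAF proteins read and how the bases between TGAC and GC vary.
Nfe2l2, chr2:75704885-75704913: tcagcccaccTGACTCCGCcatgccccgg
Gclm, chr3:122245413-122245441: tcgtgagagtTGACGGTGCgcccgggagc
Mgst1, chr6:138140461-138140489: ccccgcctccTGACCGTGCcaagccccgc
Prdx1, chr4:116685456-116685484: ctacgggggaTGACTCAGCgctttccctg
Txnrd1, chr10:82859104-82859132: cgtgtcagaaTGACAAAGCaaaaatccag
Srxn1, chr2:152105542-152105570: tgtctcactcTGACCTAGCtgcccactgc
G6pdx, chrX:74428919-74428947: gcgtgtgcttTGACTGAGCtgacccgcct
Pgd, chr4:149166061-149166089: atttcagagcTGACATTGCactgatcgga
Me1, chr9:86695902-86695930: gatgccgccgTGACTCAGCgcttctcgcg
Sod1, chr16:90220696-90220724: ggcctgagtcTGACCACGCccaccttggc

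In Prdx1 and Me1 the core read TGACTCAGC, which holds the AP-1 motif as well. The Prdx1 match began 133 bases before the start of transcription and the Me1 match 6 bases before it. The core of Pgd and that of Srxn1 lay after the start. The 250 bases before the start of Prdx1 (chr4:116685349-116685598, plus strand, GRCm38.p6) are printed because Prdx1 has the highest FPKM of the 10 genes with a match, and the capitals mark the core as it reads on the opposite strand.
Prdx1: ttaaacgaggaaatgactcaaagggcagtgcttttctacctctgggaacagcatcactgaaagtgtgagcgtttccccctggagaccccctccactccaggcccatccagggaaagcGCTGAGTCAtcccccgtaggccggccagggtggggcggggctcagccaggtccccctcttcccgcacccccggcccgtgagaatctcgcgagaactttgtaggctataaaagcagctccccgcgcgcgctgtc

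Of the 10 genes with the core in its window, 1 (Pgd) was called, and their median log2 fold change was -0.13. Among the 25 without it 2 were called and the median was -0.0080. Over all tested genes with a window, 5.85% of those with the core and 6.63% of those without it were called. A match describes letters only.

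Glutathione, the main small thiol of the cell, is built from imported cystine and used to reduce peroxides and to tag electrophiles. Of its 14 genes 2 fell, 0 rose and 12 were not called, with a median log2 fold change of -0.05. Of those that fell, Gsta4 joins glutathione to electrophiles and Glrx acts on mixed disulfides, and neither makes glutathione.

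Glrx, glutaredoxin 1, which removes glutathione from protein thiols (chromosome 13 from 75839868 to 75850154, plus strand), stood at 85.3, 84.3 and 87.2 CPM in DMSO and at 69.0, 62.6 and 58.4 CPM in IPRN. Every IPRN library lay well below the narrow range of the DMSO libraries. It was 1.35-fold lower (85.6 ± 1.503 against 63.3 ± 5.38 CPM, SD, n = 3), at -0.43 ± 0.071 (SE) on the log2 scale (edgeR adjusted p = 0.0229). The call was lost on leaving out any 1 library other than IPRN 1 (adjusted p from 0.0581 to 0.102). Without IPRN 1 it was 0.00857.

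Gsta4, a glutathione transferase for the lipid peroxidation product 4-hydroxynonenal (chromosome 9 from 78182774 to 78209349, plus strand), stood at 15.9, 17.3 and 15.8 CPM in DMSO and at 12.1, 10.8 and 11.8 CPM in IPRN. The groups were well separated. Gsta4 was 1.41-fold lower (16.3 ± 0.809 against 11.6 ± 0.701 CPM), with a log2 fold change of -0.50 ± 0.091 and an edgeR adjusted p of 0.0308. Its call was also lost without any library other than IPRN 1 (0.0801 to 0.129).

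None of the genes that make glutathione was called. Slc7a11, the cystine importer, Gclc and Gclm, the catalytic and modifier subunits of the rate-limiting ligase, and Gss, the synthetase, had log2 fold changes of 0.01, -0.09, 0.22 and 0.12. For Gclc the interval ran from 0.849-fold to 1.03-fold, and for Gclm from 0.947-fold to 1.42-fold. Gclm in DMSO was itself spread, from 48.9 and 52.1 CPM in DMSO 1 and 2 to 68.0 CPM in DMSO 3, and the IPRN libraries lay between 62.9 and 68.7 CPM. Its log2 fold change was 0.37 without DMSO 3 (adjusted p = 0.0852) and 0.12 without DMSO 1 (0.700). Both Gclm and Gss share exon sequence with other gene models. Gsr, which reduces oxidised glutathione with NADPH, stood at 82.8, 83.3 and 85.1 CPM in DMSO and at 70.5, 75.2 and 76.3 CPM in IPRN. Its groups did not overlap, and the difference of 0.884-fold did not pass (adjusted p = 0.101).

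The glutathione peroxidases did not pass either. Gpx4, which reduces lipid hydroperoxides in membranes, had the highest FPKM of the 14 and stood at 227.4, 220.1 and 227.7 CPM in DMSO and at 202.8, 237.1 and 231.6 CPM in IPRN. IPRN 1 was the lowest library and IPRN 2 the highest, and the fold change was 0.994 with an interval from 0.892 to 1.11. Gpx4-ps2, a pseudogene copy, took 2359 to 3449 counts per library against at least 13660 for Gpx4, so some reads may be divided between them. Gpx1, the cytosolic peroxidase, and Gpx7 and Gpx8, both of the endoplasmic reticulum, had log2 fold changes of -0.10, 0.03 and 0.02. Abcc1, which exports glutathione conjugates, had 0.04.

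Mgst1, a membrane-bound transferase, stood at 57.3, 58.7 and 48.0 CPM in DMSO and at 47.2, 47.0 and 48.3 CPM in IPRN. DMSO 3 lay among the IPRN libraries, and the difference did not pass (adjusted p = 0.228). Gstm1, a cytosolic transferase with close paralogs whose reads can be divided, stood at 19.5 CPM in IPRN 1 against 13.7 and 14.03 CPM in IPRN 2 and 3, and at 17.9 to 19.3 CPM in DMSO. Gstm1, Mgst1 and Cat are abundant in liver, and IPRN 1, the highest IPRN library for Gstm1, was also the library with the highest sum of liver markers (154.8 CPM). However, DMSO 1, with Alb at 0, was the highest DMSO library for Gstm1 (19.3 CPM). Mgst1 in IPRN 1 lay between IPRN 2 and IPRN 3. The part of liver RNA in these values was not tested. Without IPRN 1 the log2 fold change of Gstm1 was -0.41 (adjusted p = 0.0541).

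The thioredoxin system passes electrons from NADPH through thioredoxin reductase and thioredoxin to the peroxiredoxins, which take up most of the hydrogen peroxide in the cytosol and mitochondria. Of its 12 genes edgeR called 0, DESeq2 called 1, and 1 had an unadjusted p under 0.05, with a median log2 fold change of -0.09. That gene was Srxn1, sulfiredoxin, which restores overoxidised peroxiredoxins. Srxn1 stood at 141.4, 130.1 and 148.3 CPM in DMSO and at 103.1, 121.3 and 108.1 CPM in IPRN. The groups did not overlap, and the fold change of 0.792 (95% interval 0.696 to 0.901) missed the threshold in edgeR (adjusted p = 0.0588) and passed in DESeq2 (0.00515).

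IPRN 1 stood apart in several other thioredoxin genes. Txn1, with the highest FPKM of the 12, stood at 664.9, 648.5 and 648.9 CPM in DMSO and at 438.6, 611.7 and 632.6 CPM in IPRN 1, 2 and 3. IPRN 1 was far below the rest, and IPRN 2 and 3 were just below DMSO. The log2 fold change was -0.22 with all libraries and -0.07 without IPRN 1, and neither passed. Prdx2, a cytosolic peroxiredoxin, was also lowest in IPRN 1, with 186.7 CPM in IPRN 1, 248.4 and 248.0 CPM in IPRN 2 and 3, and 250.3 to 252.9 CPM in DMSO. Its log2 fold change was -0.15, and -0.02 without IPRN 1. It shares exon sequence with Junb and Rnaseh2a. Prdx6, the peroxiredoxin that also acts on phospholipids, stood at 234.3, 291.2 and 324.7 CPM in IPRN and at 314.3 to 360.0 CPM in DMSO (log2 fold change -0.23, and -0.11 without IPRN 1).

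IPRN 1 was the lowest of all 6 libraries in 8 of the 12 thioredoxin genes (66.7%), and in 21.8% of all genes tested. It was the lowest in 12 of all 43 members (27.9%) and in 2 of the 14 glutathione genes. Summed over the 12 genes, the thioredoxin system stood at 1270, 1211 and 1225 FPKM in DMSO and at 944.4, 1197 and 1213 FPKM in IPRN. The ratio of the group means was 0.905, and 0.975 without IPRN 1.

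Prdx1, the most abundant peroxiredoxin here, stood at 752.4, 737.6 and 726.7 CPM in DMSO and at 695.4, 688.7 and 704.1 CPM in IPRN. The groups did not overlap, but the shift was 0.942-fold and did not pass (adjusted p = 0.270). Prdx3 of mitochondria, Prdx4 of the endoplasmic reticulum and Prdx5, which is found in several compartments, had log2 fold changes of -0.02, -0.10 and 0.05, and that of Prdx4 was -0.05 without IPRN 1. Txnrd1, the cytosolic reductase and a selenoprotein, had 0.02 with an interval from 0.887-fold to 1.15-fold, and Txnrd2, its mitochondrial counterpart, had 0.17. Msra, which repairs oxidised methionine, had 0.18. Without IPRN 1 Txnrd2 had 0.35 (adjusted p = 0.0867) and Msra 0.04, and none of these values passed.

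Txn2, mitochondrial thioredoxin, stood apart in a DMSO library. It measured 118.1 CPM in DMSO 1, 59.4 and 58.5 CPM in DMSO 2 and 3, and 66.4, 54.1 and 68.9 CPM in IPRN. DMSO 1 was higher than any other library, and the other 5 overlapped. The log2 fold change was -0.32 with DMSO 1 and 0.10 without it, and neither passed (adjusted p = 0.588 and 0.758).

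**Figure D3:**
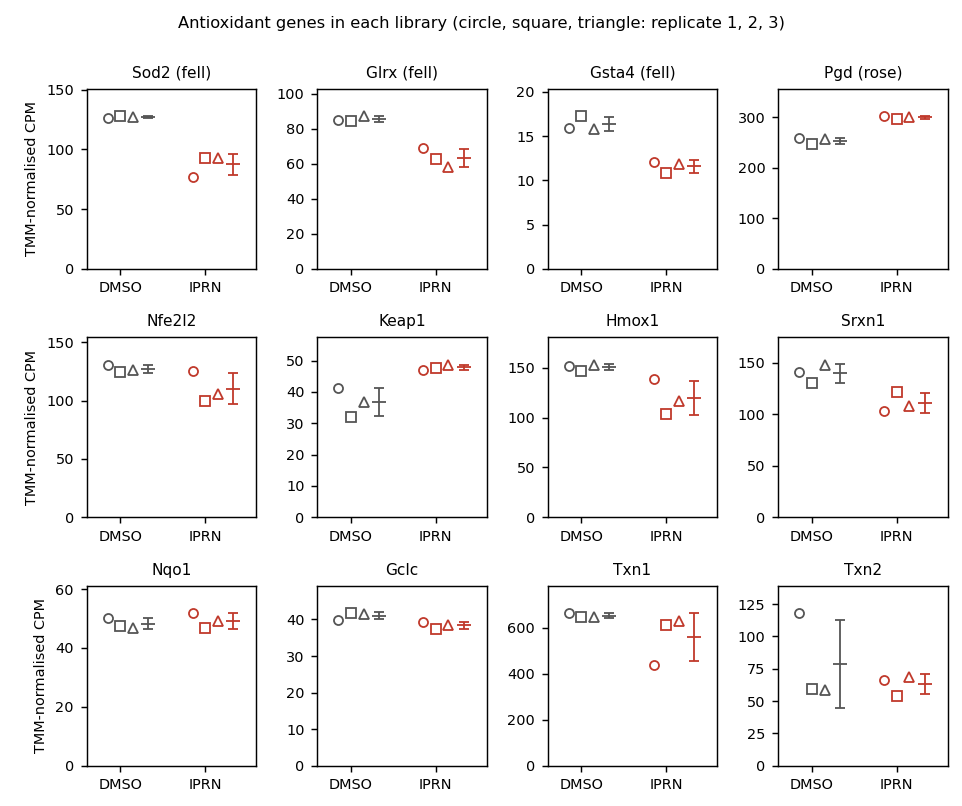
TMM-normalised CPM (y axis from 0) of 12 genes in each DMSO (grey) and IPRN (red) library, with the mean and SD of 3 libraries beside the points. The groups do not overlap for the called Sod2, Glrx, Gsta4 and Pgd, nor for the uncalled Keap1, Hmox1, Srxn1, Gclc and Txn1. For Txn1 IPRN 1 lies far below the other libraries, and for Txn2 DMSO 1 lies far above them.

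NADPH, the electron source for both thiol systems, comes from the pentose phosphate pathway and from malic enzyme. Of these 5 genes 1 rose, 0 fell and 4 were not called, with a median log2 fold change of 0.10. Pgd, 6-phosphogluconate dehydrogenase, the enzyme of the second NADPH-producing step of the pathway (chromosome 4 from 149149991 to 149166707, minus strand), stood at 257.8, 246.3 and 255.7 CPM in DMSO and at 301.8, 295.5 and 301.0 CPM in IPRN. Both groups were tight and well apart. Pgd rose 1.182-fold (253.3 ± 6.14 to 299.4 ± 3.41 CPM, SD, n = 3), or 0.24 ± 0.042 (SE) on the log2 scale (edgeR adjusted p = 0.0276). Without IPRN 1 it stayed called (0.0247), and without any other library the call was lost (0.0793 to 0.127).

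G6pdx, glucose-6-phosphate dehydrogenase, which makes the first NADPH of the same pathway, lay on the other side. It stood at 182.7, 175.5 and 174.0 CPM in DMSO and at 161.5, 154.9 and 158.6 CPM in IPRN. The groups did not overlap, and the fold change of 0.893 (95% interval 0.830 to 0.960) did not pass (adjusted p = 0.0831). G6pdx shares exon sequence with Ikbkg. Me1, cytosolic malic enzyme, stood at 56.2, 58.8 and 56.2 CPM in DMSO and at 49.4, 52.0 and 47.0 CPM in IPRN, again without overlap, and 0.867-fold did not pass (adjusted p = 0.104).

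Taldo1, transaldolase, and Tkt, transketolase, run the non-oxidative branch that returns sugars to glycolysis. Taldo1, the highest of the 5 by FPKM, stood at 124.6, 127.0 and 130.7 CPM in DMSO and at 116.5, 135.3 and 158.4 CPM in IPRN. The IPRN libraries spanned the whole DMSO range (log2 fold change 0.10, adjusted p = 0.658). Tkt had 0.16 (adjusted p = 0.325). Without IPRN 1 Taldo1 had 0.21 and Tkt 0.09, and neither was called. The difference between Pgd and G6pdx in their response was not tested.

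Haem and iron genes release, store and thereby limit iron that would turn peroxide into hydroxyl radicals. Of the 3, edgeR called 0, DESeq2 called 1 and 1 had an unadjusted p under 0.05. Hmox1, haem oxygenase 1, a strongly inducible stress gene that frees iron from haem (chromosome 8 from 75093621 to 75100589, plus strand), stood at 151.9, 146.8 and 153.1 CPM in DMSO and at 138.4, 104.0 and 116.4 CPM in IPRN. Every IPRN library lay below every DMSO library, with IPRN 1 nearest. The fold change of 0.794 (95% interval 0.673 to 0.937) did not pass in edgeR (adjusted p = 0.109) and passed in DESeq2 (0.0214). Without IPRN 1 the log2 fold change was -0.45 and was called by edgeR (0.0159).

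Ftl1, the light chain of ferritin, stood at 2248, 2072 and 2213 CPM in DMSO and at 2260, 2294 and 2360 CPM in IPRN. IPRN lay above DMSO by little more than the spread of the DMSO libraries (1.06-fold, 95% interval 0.981 to 1.14, adjusted p = 0.375). Fth1, the heavy chain, which oxidises iron for storage, lay at 825.1 to 854.1 CPM in DMSO and 797.4 to 830.2 CPM in IPRN (0.976-fold, interval 0.912 to 1.05). Ferritin genes have many pseudogene copies. Ftl1-ps1 took 2225 to 3733 counts per library, against at least 135042 for Ftl1.

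Superoxide is turned into hydrogen peroxide by superoxide dismutases, and catalase removes the peroxide. Of these 4 genes 1 fell, 0 rose and 3 were not called. Sod2, the manganese dismutase of mitochondria, which is also induced by inflammatory cytokines through NF-κB, is listed on chromosome 17 from 13006846 to 13037398, plus strand. It stood at 126.5, 127.9 and 127.4 CPM in DMSO and at 76.8, 92.9 and 92.5 CPM in IPRN. All IPRN libraries were far below the DMSO range, and IPRN 1 was lowest. Sod2 was 1.46-fold lower (127.3 ± 0.710 against 87.4 ± 9.18 CPM, SD, n = 3), at -0.54 ± 0.080 (SE) on the log2 scale, with the smallest adjusted p of the 43 genes (0.0177, edgeR). It stayed called without any 1 IPRN library (adjusted p from 0.00359 to 0.0452) but not without DMSO 1, DMSO 2 or DMSO 3 (0.0747 to 0.0901).

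The other dismutases gave no such difference. Sod1, the copper and zinc enzyme of the cytosol, stood at 165.1, 169.7 and 170.5 CPM in DMSO and at 171.4, 175.2 and 175.8 CPM in IPRN. Its groups just failed to overlap, with a fold change of 1.03 (95% interval 0.967 to 1.11, adjusted p = 0.574). Sod3, the secreted enzyme, had a log2 fold change of 0.03. Cat, catalase, stood at 46.5, 54.3 and 52.3 CPM in DMSO and at 64.8, 57.3 and 54.3 CPM in IPRN. DMSO 2 overlapped IPRN 3, and the difference of 1.15-fold did not pass (adjusted p = 0.256). Cat was highest in IPRN 1, which also held the most liver marker RNA, and its log2 fold change was 0.20 with that library and 0.13 without it.

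Set side by side, the 5 enzyme and iron groups had median log2 fold changes of -0.05 for glutathione, -0.09 for thioredoxin, 0.10 for NADPH supply, -0.04 for iron and 0.04 for superoxide. All 5 medians lay inside the middle range of all genes tested, whose quartiles were -0.20 and 0.20. Those quartiles describe single genes, and a median of several genes varies less. Lying inside them therefore does not show that a group was unchanged. The called share was 2 of 14, 0 of 12, 1 of 5, 0 of 3 and 1 of 4. Of all genes tested 5.47% were called, and of those at 10 CPM or more 9.05%. With 3 to 14 genes each, the groups are too small to be ranked by these counts. Summed FPKM in IPRN relative to DMSO was 0.957 for glutathione, 0.905 for thioredoxin, 1.04 for NADPH supply, 1.04 for iron and 1.009 for superoxide. In the iron group Ftl1 alone made up 84.1% of the sum. Without IPRN 1 the thioredoxin median was -0.03, above those of glutathione (-0.07) and iron (-0.04), and the superoxide median was 0.06. Without both DMSO 1 and IPRN 3 the medians of NADPH supply and superoxide changed sign, to -0.04 and -0.01.

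**Figure D4:**
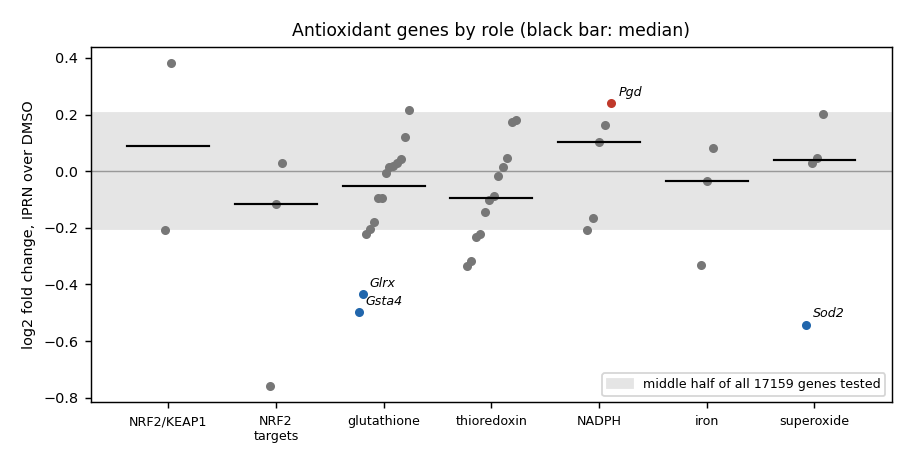
Each point is the log2 fold change (IPRN over DMSO) of a gene in its role group, with a black bar at the group's median and a grey band between the quartiles of all genes tested, -0.20 and 0.20. The medians of all 7 groups lie inside the band, which describes single genes and is wide for a median. Sod2, Glrx, Gsta4 and Pgd are named.

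Other genes of the pathway were listed by their textbook function. The background for the counts in each list is 5.47% of all genes tested called by edgeR, or 9.05% of those at 10 CPM or more. DESeq2 called 970 genes higher and 941 lower, against 422 and 516 in edgeR. No list was tested as a set. Of 15 genes for partners and controllers of NRF2, 13 were tested, 1 rose, 2 fell and 10 were not called. Both that fell encode small MAF proteins, with which NRF2 binds DNA. Maff stood at 46.8, 44.7 and 45.7 CPM in DMSO and at 31.4, 37.2 and 35.3 CPM in IPRN (1.32-fold lower, edgeR adjusted p = 0.0373). Mafk, which overlaps Tmem184a, was 1.26-fold lower (0.0435), and the third small MAF gene, Mafg, had a log2 fold change of -0.11 (0.357). Dpp3, a peptidase that binds KEAP1, rose 1.23-fold, from 84.6, 86.2 and 87.3 CPM to 100.2, 109.5 and 106.7 CPM (0.0284). The calls of Maff and Dpp3 were lost without any library other than IPRN 1, and that of Mafk without any of the 6. Bach1, the repressor that competes with NRF2, had a log2 fold change of -0.26 and was not called in edgeR (0.0623), but was in DESeq2.

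Of 27 further NRF2 targets, 23 were tested and 1 fell, with 0 rises, in edgeR. DESeq2 called 3, adding Gstp1 (log2 fold change 0.22, DESeq2 adjusted p = 0.0256) and Slc6a9 (0.34, 0.0149), both higher in IPRN. Slc6a9 shares exon sequence with other gene models. Ugdh, which makes UDP-glucuronate, fell from 359.8, 361.4 and 357.8 CPM to 287.7, 295.7 and 284.1 CPM (1.24-fold, edgeR adjusted p = 0.0123). The groups were far apart relative to their spread. Ugdh shares exon sequence with another gene model and stayed called in 3 of the 6 fits without 1 library. Of 31 other glutathione and thiol genes 28 were tested and edgeR called 0. An unadjusted p under 0.05 was met by 6 of the 28, and by 3769 of all 17159 genes tested. DESeq2 called 2 (Ggct and Chac1, which break down glutathione). Txnip, the thioredoxin inhibitor, had a log2 fold change of 0.0026.

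A further 16 genes were listed around NADPH supply and one-carbon metabolism, and not all of their enzymes make NADPH. All had a tested gene model, and in edgeR 1 rose, 2 fell and 13 were not called. DESeq2 called 6, adding Nadk and Mthfd2, which were lower in IPRN, and Shmt2, which was higher. Idh1, the cytosolic NADP isocitrate dehydrogenase, fell from 157.3, 160.6 and 153.3 CPM to 102.8, 119.6 and 125.8 CPM (1.35-fold, edgeR adjusted p = 0.0294). Me2, a mitochondrial malic enzyme, was 1.23-fold lower (0.0395). H6pd, the hexose-6-phosphate dehydrogenase of the endoplasmic reticulum, rose 1.23-fold, from 85.2, 82.2 and 82.6 CPM to 110.6, 99.6 and 98.1 CPM (0.0387). The call of Me2 was lost in each fit without 1 library, that of H6pd in 5 of the 6 and that of Idh1 in 4.

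Of 17 further iron and haem genes 2 fell, 0 rose and 15 were not called in edgeR. DESeq2 called 4, adding Slc11a2 and Pcbp2. Tfrc, the transferrin receptor for iron uptake, stood at 238.5, 242.0 and 228.3 CPM in DMSO and at 142.9, 168.3 and 169.6 CPM in IPRN. It was 1.47-fold lower (edgeR adjusted p = 0.0127) and stayed called in 3 of the 6 fits without 1 library. Its log2 fold change of -0.56 ± 0.074 (SE) lay within a standard error of that of Sod2 (-0.54 ± 0.080), the largest among the called members. Slc39a14, a metal importer, was 1.184-fold lower (0.0314) and stayed called in 1 of the 6.

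Of 13 oxidant producers and superoxide partners 9 were tested, 1 fell and 0 rose. Xdh, xanthine dehydrogenase, which can yield superoxide, stood at 225.4, 223.1 and 236.6 CPM in DMSO and at 192.4, 182.1 and 181.5 CPM in IPRN (1.23-fold lower, edgeR adjusted p = 0.0214). It stayed called in 1 of the 6 fits without 1 library. Nox4, the NADPH oxidase gene that TGF-β induces in many fibroblasts, had 0 counts in every library, which allows up to 0.0382 to 0.0497 CPM (3 counts, counting error only). Cyba, the p22 subunit of the oxidases, stood at 37.7 to 42.7 CPM in DMSO and 33.3 to 45.5 CPM in IPRN.

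**Figure D5:**
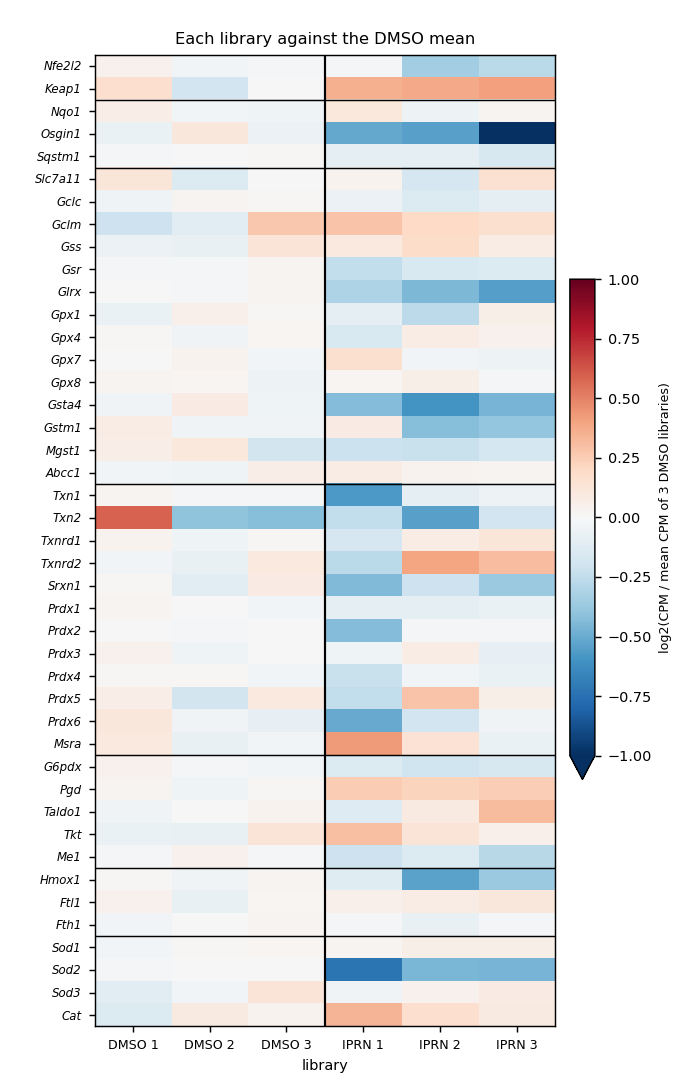
Each cell shows a library's TMM-normalised CPM relative to the mean of the 3 DMSO libraries (log2 colour scale, blue lower, red higher) for the 43 genes in role order. The rows of Sod2, Glrx and Gsta4 are blue in all 3 IPRN libraries. So are those of uncalled genes such as Osgin1, whose blue is deepest in IPRN 3. The blue of Txn1, Prdx2 and Prdx6 is deepest in IPRN 1, and the red of Txn2 lies in DMSO 1.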

How the data were processed

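Polyadenylated RNA of 6 NIH3T3 libraries was sequenced, per the labels' protocols without a step that marks strand. For each library and Ensembl gene the authors deposited a whole-number count together with an FPKM, per the file headers. Counts were tested, and the deposited FPKM, scaled by length and depth before deposit, served only to compare levels between genes. Cutadapt 1.9 is named in the submitters' processing notes. Aligner, counter, build and annotation: not given in the sources used here. Gene positions are those of the files. Of the gene IDs shared with GENCODE M21 (GRCm38), 94.2% had identical positions, including 36 of the 43 members but not Fth1, Pgd, Prdx5, Sod2, Srxn1, Txn2 and Txnrd2. Exon overlaps were read from that annotation, and 11 members shared exon sequence with another gene model (Keap1, Sqstm1, Gclm, Gss, Txnrd2, Prdx2, Prdx5, G6pdx, Tkt, Me1 and Ftl1).

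Counts were fitted in R 4.3.3 with edgeR 4.0.16 (TMM, its expression filter at a minimum count of 10, quasi-likelihood test, group as the only term), and p-values were adjusted by Benjamini-Hochberg over all 17159 genes that passed. The method was tested on simulated data. Standard errors were derived from the fold change on the log2 scale with its F statistic, and 95% intervals, which are not adjusted, from the t distribution with the fit's degrees of freedom. DESeq2 1.42.0, other scalings, other filters, a replicate block and fits without libraries were alternatives. No 2 replicates were copies of 1 library (chi-square over its degrees of freedom was 34.0 to 97.6).

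The members, lists and roles were chosen with earlier results of these data known. Values in every library are given for called members, the member of each role group with the highest mean FPKM and the 2 uncalled members of each role group with the smallest p. Values of other genes were added where a sentence turns on them, after they were seen. Called genes of the other lists are named, at most 3 per list with values. Promoter sequences are from RefSeq on GRCm38.p6.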

Additional observations from a re-analysis of the deposited data

How the results depend on the processing

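The count of changed genes, 938, was 1911 with DESeq2, 621 with no filter on low counts, 103 with replicate number as a block and 53 without DMSO 1 and IPRN 3 together. In the fits without 1 library it ran from 133 to 1047. Of the 43 antioxidant genes, 1 rise and 3 falls became 2 and 6 with DESeq2, 0 and 0 with the replicate block, and 0 and 0 without DMSO 1 and IPRN 3 together. Without 1 library the rises ran from 0 to 1 and the falls from 0 to 5, where 5 was reached without IPRN 1. Other scalings and filters kept all 4 calls. The cause was not tested.

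The replicate numbers share no stated origin. Same-numbered libraries had correlations of their deviations of -0.029, -0.0023 and -0.047, so the block rests on a number alone, and no library correlated best with its own number.

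The log2 fold change of 11 uncalled genes switched sign without 1 library, and none of them was called: Nqo1 (log2 fold change from -0.0104 to 0.0701), Slc7a11 (-0.0636 to 0.10), Gpx4 (-0.05 to 0.0588), Gpx7 (-0.04 to 0.0634), Gpx8 (-0.0050 to 0.0366), Txn2 (-0.49 to 0.10), Txnrd1 (-0.0431 to 0.10), Prdx3 (-0.059 to 0.0125), Prdx5 (-0.0815 to 0.18), Taldo1 (-0.0202 to 0.21) and Sod3 (-0.0223 to 0.10). Without DMSO 1 and IPRN 3 together, Txn2 was 0.028, Txnrd1 -0.027, Prdx3 0.033, Taldo1 -0.036 and Sod3 -0.051. Every member had at least 141 counts in each library, the fewest being those of Osgin1.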
